A study of Mus musculus with 9 samples.

Results

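Leukemia cells driven by the MLL-AF9 fusion after Cre deletion of Af10 were compared with leukemia cells driven by Hoxa9 and Meis1. The comparison used the 6 arrays whose labels name these groups, of 9 in the series: 3 of Af10 deleted MLL-AF9 leukemias (replicates 4, 5 and 6 of the labels) and 3 of Hoxa9-Meis1 leukemias (numbered 1, 2 and 3 here). The deleted leukemias began as primary MLL-AF9 leukemias homozygous for floxed Af10. These cells received a retroviral vector that carried Cre and tdTomato, were sorted and passed into secondary mice, and their bone marrow was sorted again for tdTomato before RNA was made. The Hoxa9-Meis1 cells were bone marrow of primary leukemias made by transduction of both genes. They were not sorted for tdTomato, and whether they carried floxed Af10 is not stated. All samples shared the strain background C57/BL6 X 129 and were freshly harvested and not cultured. The other 3 arrays held Af10 floxed MLL-AF9 leukemias with the empty tdTomato vector. They entered the fit and are given beside some of the genes and lists. Oncogene, Af10 deletion, transplant generation, vector and sorting differed together between the groups compared, so they cannot be told apart. Nothing in the labels ties each array to its own mouse or primary leukemia, so p-values here reflect only the spread among these samples, part of which may be technical.

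MLL-AF9 joins the start of the histone methyltransferase MLL (gene Kmt2a) to the end of AF9 (gene Mllt3). AF9 binds the histone methyltransferase Dot1l and elongation factors, and AF10 (gene Mllt10) is a partner of Dot1l that supports methylation of histone H3 on genes such as the HoxA cluster and Meis1. Forced expression of Hoxa9 with Meis1 transforms marrow progenitors without an MLL fusion, so the Hoxa9-Meis1 leukemia is driven by genes that lie downstream of the fusion.

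Levels below are log2(intensity + 1), where the intensity is the deposited value of a probe set, and values are given for deleted arrays 4, 5 and 6 and then for Hoxa9-Meis1 arrays 1, 2 and 3. A difference is the deleted mean minus the Hoxa9-Meis1 mean, and a gene was called where its limma adjusted p was under 0.05. Arrays correlated at 0.980 to 0.988 within the deleted group, at 0.981 to 0.990 within the Hoxa9-Meis1 group and at 0.941 to 0.959 between them (Pearson's r over probe sets, which are not independent). Median intensity was 146 on the deleted arrays and 152 to 156 on the Hoxa9-Meis1 arrays. For Gapdh, the level at the 3' control probe set minus that at the 5' one, which grows as RNA degrades, was 0.44 to 0.60 in the deleted and 0.67 to 0.81 in the Hoxa9-Meis1 group, and that of Actb was -0.38 to -0.34 and -0.40 to -0.36. Xist was at 11.46 or above on all 9 arrays, and the range of probe sets for Uty, Eif2s3y and Kdm5d, which lie on the Y chromosome (2.97 to 4.71), was taken as background.

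The transduced genes and the deleted gene came first. Hoxa9 was represented on the array by a pair of probe sets that disagreed. Its brighter probe set, 1421579_at, was at 10.20, 9.90 and 7.35 in deleted leukemias and at 13.82, 13.82 and 13.58 in Hoxa9-Meis1 leukemias. The groups did not overlap, and all Hoxa9-Meis1 arrays were higher (difference -4.59, SE 0.63, 24.1-fold, limma adjusted p = 0.00176). The other probe set, 1455626_at, was at 10.88, 10.54 and 7.96 against 3.98, 4.73 and 5.43, so there the deleted leukemias were higher (difference 5.08, limma adjusted p = 0.00159 in the fit over probe sets). Floxed leukemias were bright at both, at 12.52, 11.75 and 12.21 and at 12.86, 13.07 and 12.73. Which part of the Hoxa9 transcript each probe set reads, and which part the retrovirus carried, is not given in the sources used here. Deleted array 6 was the lowest at both probe sets, and without it the difference of the first was -3.69. With the mean of both probe sets the direction turned (0.25, limma adjusted p = 0.847).

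The Hoxa9 partner gene Meis1 was higher in the deleted leukemias at all 3 of its probe sets. The one that represented the gene was at 8.75, 9.42 and 8.35 in deleted and at 7.15, 6.74 and 6.72 in Hoxa9-Meis1 leukemias, with no overlap (difference 1.97, SE 0.29, 3.91-fold, limma adjusted p = 0.00254). A second, 1450992_a_at, was at 8.31, 9.49 and 9.09 against 5.17, 5.23 and 5.47, and the third, 1443260_at, had its Hoxa9-Meis1 mean of 4.75 next to the background range. With the mean of the probe sets the difference was 2.99. No Meis1 probe set was therefore bright in the leukemias transduced with Meis1, and the labels do not give the part of the gene that was transduced. Floxed leukemias were at 9.73, 10.53 and 10.02 at the representative probe set.

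**Figure D1:**
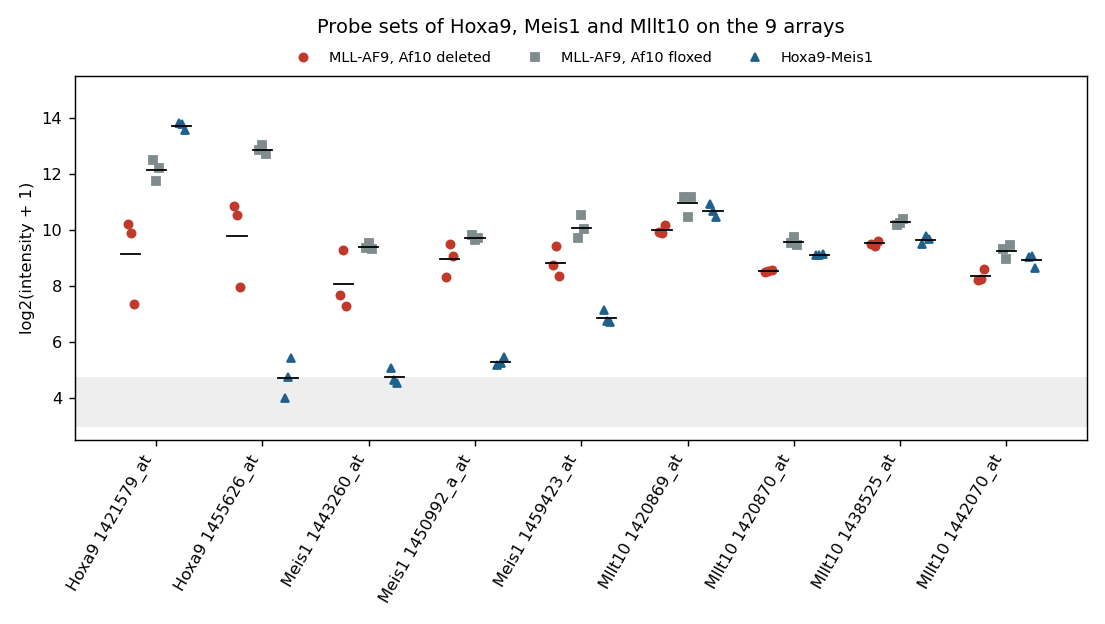
Log2(intensity + 1) of each probe set of Hoxa9, Meis1 and Mllt10 (horizontal axis) on the 3 deleted, 3 floxed and 3 Hoxa9-Meis1 arrays; points are arrays, bars are group means and the grey band is the background range of Y-linked probe sets. The Hoxa9-Meis1 arrays are the highest at 1 Hoxa9 probe set and near background at the other, and they are the lowest at all 3 Meis1 probe sets.

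Mllt10 itself was at 9.93, 9.89 and 10.19 in the deleted and at 10.93, 10.67 and 10.46 in the Hoxa9-Meis1 leukemias. The groups did not overlap, but the difference did not pass (-0.68, SE 0.21, limma adjusted p = 0.057). Of its 4 probe sets, 1420870_at passed (difference -0.58, limma adjusted p = 0.00875), and the other 3 did not. The gene passed with the filter on low values (limma adjusted p = 0.0485), with the mean of its probe sets (0.0178), with only the 6 arrays compared in the fit (0.0291) and with array weights (0.0097), while leaving out an array gave 0.0537 to 0.191. The floxed part of Mllt10 is not given in the sources used here. In the floxed leukemias it was at 11.20, 10.49 and 11.18.

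The genes at the ends of the fusion and its histone methyltransferase did not pass with all arrays. Mllt3 was at 7.98, 7.98 and 7.85 against 8.91, 9.03 and 7.98 (difference -0.70, limma adjusted p = 0.0827), and Hoxa9-Meis1 array 3 stood apart from the other two. Without that array Mllt3 passed (difference -1.03, limma adjusted p = 0.000923), and it also passed with the mean of its probe sets (-1.11, 0.0264) and with array weights (-0.86, 0.0153). Kmt2a was at 9.53, 9.53 and 10.88 against 10.27, 10.50 and 10.01, so the groups overlapped (difference -0.28, limma adjusted p = 0.656, and 0.0391 without deleted array 6). Dot1l was at 9.93, 10.06 and 9.93 against 9.90, 9.92 and 9.95 (difference 0.05, SE 0.14, limma adjusted p = 0.865), and its difference was -0.07 with the mean of its probe sets and -0.03 with quantile normalization.

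Over all 18194 genes, 1687 were higher in the deleted leukemias (9.27% of the genes tested) and 1134 were lower (6.23%). Of these, 663 were higher and 622 lower by at least 1 on the log2 scale, and the median difference of all genes was 0.05. Without asking for a call, 21.7% of the genes had all deleted arrays above all Hoxa9-Meis1 arrays and 13.2% had them all below. Among 34958 probe sets, 2880 were higher (8.24%) and 2448 were lower (7% of the probe sets). Beside these, the floxed leukemias differed from the same Hoxa9-Meis1 arrays in 1015 genes higher (5.58%) and 603 lower (3.31%), and the deleted from the floxed leukemias in 585 higher (3.22%) and 661 lower (3.63%). These comparisons share arrays. Without Hoxa9-Meis1 array 1 the counts were 893 higher and 647 lower, without array 2 they were 938 and 698, and without deleted array 4 the count of higher genes was 1076.

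**Figure D2:**
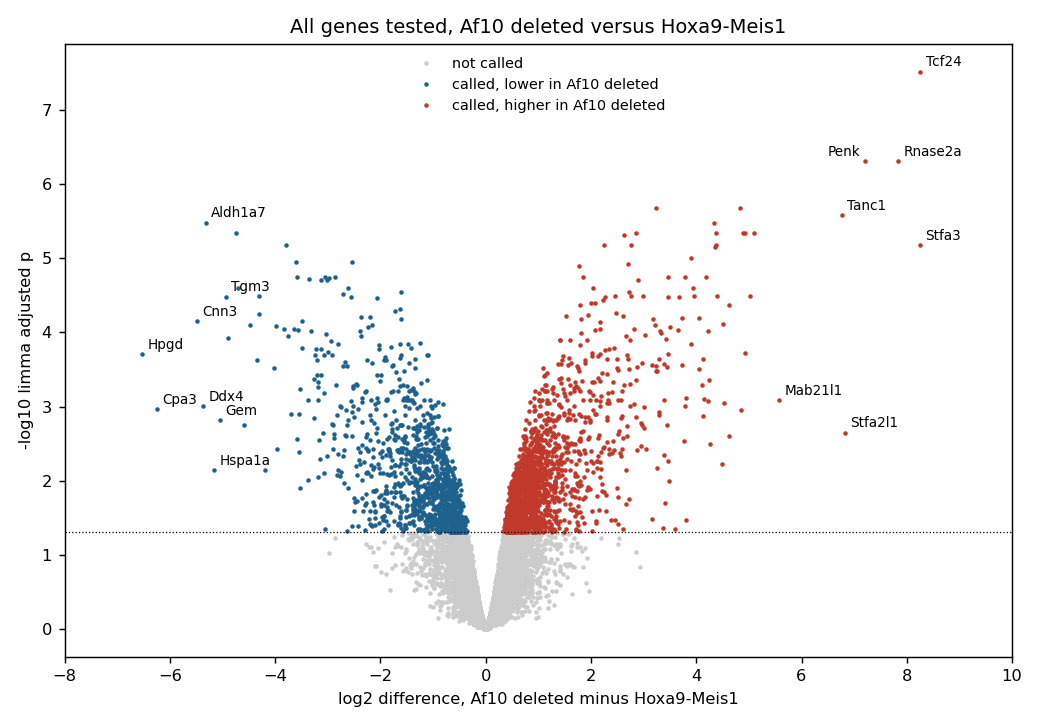
Each point is 1 of 18194 genes, with the log2 difference of the deleted minus the Hoxa9-Meis1 leukemias (horizontal) against -log10 of the limma adjusted p (vertical); the dotted line is the threshold of 0.05. Called genes lie on both sides, 1687 higher and 1134 lower in deleted leukemias, and the names are the largest differences.

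The largest difference was that of Tcf24, a basic helix-loop-helix transcription factor gene, which was higher in the deleted leukemias. It was at 13.04, 13.09 and 13.09 against 4.91, 4.89 and 4.64 (difference 8.26, SE 0.16, 306-fold, limma adjusted p = 3.05e-08), and floxed leukemias were between at 10.01, 9.97 and 10.54. The Hoxa9-Meis1 values of Tcf24 lay in or next to the background range, and its difference was 7.19 with a pseudocount of 32. Penk, the gene of the opioid precursor proenkephalin, was at 12.78, 13.19 and 13.25 against 5.95, 5.83 and 5.81 (148-fold, limma adjusted p = 4.86e-07). The floxed leukemias were again between, at 11.24, 11.27 and 12.00. Both genes were far brighter on every deleted array than on any Hoxa9-Meis1 array.

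Some of the genes that were higher belong to families of near copies whose probes can cross-hybridise. Stfa3, a stefin gene of neutrophils, was at 13.51, 14.02 and 13.37 against 4.95, 4.84 and 6.37 (304-fold, limma adjusted p = 6.64e-06). Its neighbour in the family Stfa2l1 was at 13.49, 14.03 and 13.19 against 5.43, 5.26 and 9.55, where Hoxa9-Meis1 array 3 stood apart (difference 6.82, limma adjusted p = 0.00225). Its difference was 8.23 without that array, 6.17 without Hoxa9-Meis1 array 1 and 6.08 without array 2. Rnase2a, a ribonuclease of the eosinophil-associated family, was at 11.73, 11.86 and 11.59 in deleted leukemias, and its Hoxa9-Meis1 mean lay in the background range, so it was at least 129.5-fold higher, measured against the top of that range (limma adjusted p = 4.86e-07). The immunoglobulin segment Igkv9-120 was at 11.27, 9.32 and 10.58 against 6.77, 4.51 and 5.36 (difference 4.85, limma adjusted p = 0.00112), and 5.46 without Hoxa9-Meis1 array 1, and 2.47 with the mean of its probe sets.

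Further genes among the 15 that were highest relative to Hoxa9-Meis1 leukemias are known from neurons or embryonic tissue. Pou4f1, a transcription factor gene of sensory neurons, was at 12.12, 11.69 and 12.28 against 6.81, 7.58 and 6.95 (30.3-fold, limma adjusted p = 4.52e-06). Slc32a1, the vesicular transporter of inhibitory neurotransmitters, was at 12.35, 12.22 and 12.49 against 7.98, 6.62 and 7.69 (30.4-fold, limma adjusted p = 0.00019). Mab21l1 was at 11.29, 8.21 and 11.01 and in the background range in Hoxa9-Meis1 leukemias, so it was at least 43.9-fold higher (limma adjusted p = 0.000825). Deleted array 5 was the lowest there, and without it the difference rose from 5.58 to 6.56. For all 3 of these genes the floxed leukemias were closer to the Hoxa9-Meis1 than to the deleted group: floxed levels were 7.42, 7.47 and 7.41 for Pou4f1, 9.54, 7.80 and 8.82 for Slc32a1 and 4.61, 4.44 and 4.59 for Mab21l1.

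Smad1, which relays BMP signals, was at 10.68, 10.81 and 11.64 against 5.66, 8.31 and 5.30 (difference 4.62, limma adjusted p = 0.00251), and 5.57 without Hoxa9-Meis1 array 2, which stood apart. The collagen gene Col5a3 was at 10.83, 11.03 and 11.14 against 6.66, 5.80 and 5.50 (32.4-fold, limma adjusted p = 3.2e-05). Lgr4, a receptor that enhances Wnt signals, was at 9.94, 9.94 and 10.23 against 5.21, 4.68 and 5.54 (29.7-fold, limma adjusted p = 4.52e-06). Ces1d (34.3-fold), a carboxylesterase, and Rassf10 (28.5-fold), a Ras association domain gene, were likewise higher, and Tanc1, a scaffold protein gene, was at least 66.1-fold higher, since its Hoxa9-Meis1 mean lay in the background range. When all probe sets of a gene were averaged, the difference of Tanc1 was 3.33 in place of 6.77, that of Slc32a1 3.28 in place of 4.93, that of Lgr4 3.67 and that of Rassf10 2.95.

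Among genes that were lower in the deleted leukemias, Hpgd, which encodes the enzyme that inactivates prostaglandins, differed most. It was at 6.62, 4.66 and 5.23 against 11.87, 10.99 and 13.26 (difference -6.53, SE 0.59, 92.7-fold, limma adjusted p = 0.000198), and -5.92 without Hoxa9-Meis1 array 3, the brightest. Floxed leukemias were at 12.93, 13.09 and 13.17, near the top of the Hoxa9-Meis1 range. Cpa3, a mast cell carboxypeptidase, was at 5.56, 5.14 and 5.78 against 12.51, 12.75 and 9.99 (76.3-fold, limma adjusted p = 0.00109), and there Hoxa9-Meis1 array 3 was the lowest of its group (difference -6.25, and -7.13 without that array).

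Cnn3, a calponin gene, Hnf4a, a nuclear receptor gene of liver and gut, B3gnt5, a glycosyltransferase gene, and Amot, an angiomotin gene, shared a pattern in which the floxed leukemias were close to the Hoxa9-Meis1 group. Cnn3 was at 4.70, 5.81 and 4.66 against 10.71, 11.13 and 9.78 (44.7-fold, limma adjusted p = 7.07e-05), with floxed values of 10.87, 11.03 and 10.17. Hnf4a was at 5.68, 5.86 and 6.65 against 11.07, 11.63 and 10.20 (29.9-fold, limma adjusted p = 0.00012), and all 4 of its probe sets were called lower. B3gnt5 (26.8-fold) and Amot (19.9-fold) were called too. The difference of Amot was -4.32, and -2.48 with the mean of its probe sets, and that of Cnn3 was -5.48 and -4.46.

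Other genes were brighter in the Hoxa9-Meis1 leukemias than in both MLL-AF9 groups. Aldh1a7, an aldehyde dehydrogenase gene, was at 9.59, 9.81 and 8.98 in Hoxa9-Meis1 leukemias, while all deleted and floxed values lay in the background range, so it was at least 26.9-fold lower in the deleted group (limma adjusted p = 3.29e-06). Gdf3, a growth factor of the TGF-beta family, was at 6.40, 5.76 and 5.73 against 9.60, 11.11 and 10.60 (22.2-fold, limma adjusted p = 7.87e-05). Gem, a small GTPase of the Ras family, was at 5.22, 4.95 and 5.36 against 11.42, 9.99 and 9.25 (difference -5.05, limma adjusted p = 0.00153), and -4.45 without Hoxa9-Meis1 array 1. Tgm3 (30.8-fold), a transglutaminase, and Calml4 (20.5-fold), a calmodulin-like gene, were lower as well. The germ cell helicase gene Ddx4 was at 3.32, 2.89 and 2.84 against 8.49, 9.16 and 7.51, at least 12.8-fold lower (limma adjusted p = 0.000983). For Gem, Tgm3, Calml4 and Ddx4 the floxed means of 7.61, 8.92, 7.90 and 6.05 lay between those of the other groups.

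**Figure D3:**
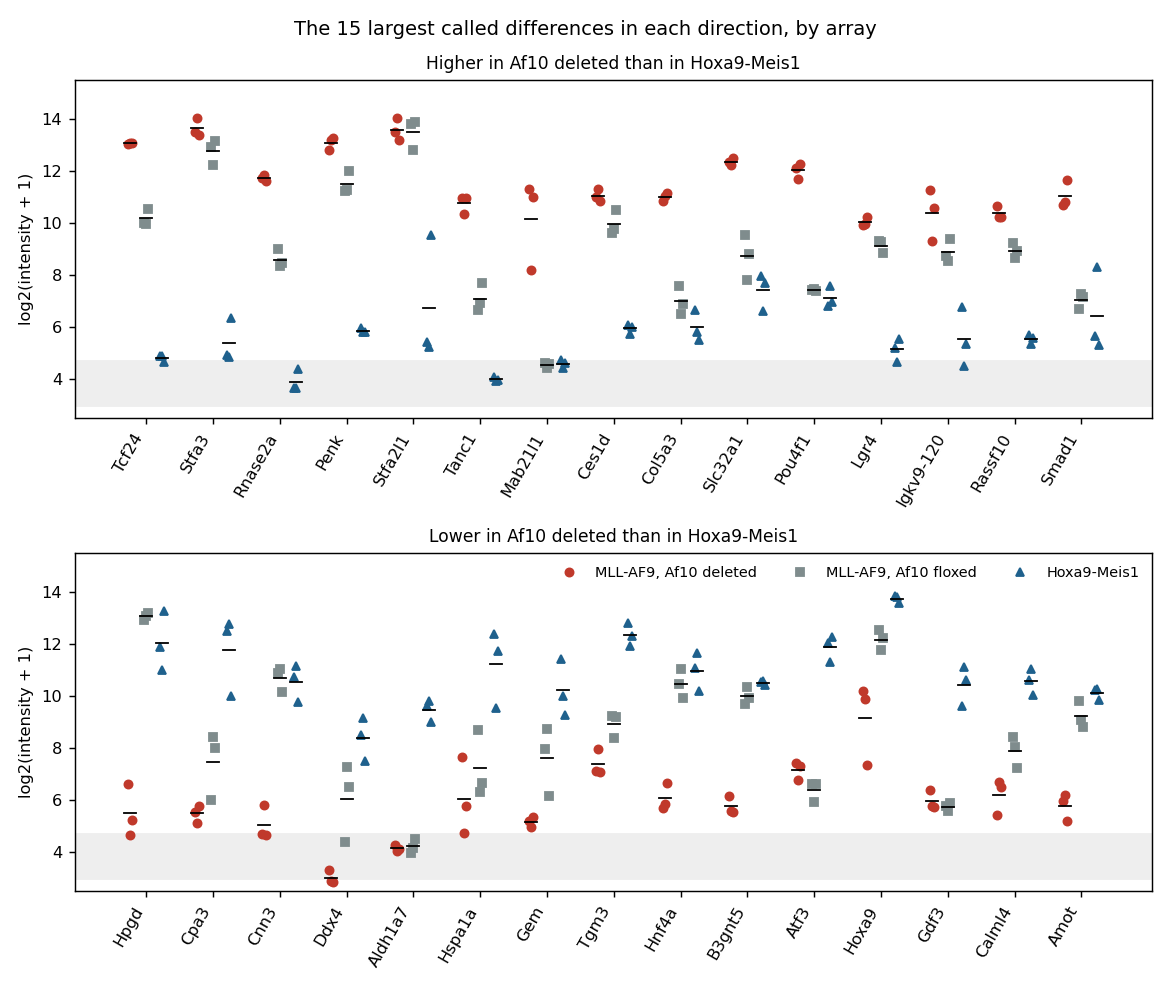
Log2(intensity + 1) on each of the 9 arrays for the 15 genes with the largest called difference in each direction (upper panel higher, lower panel lower in deleted than in Hoxa9-Meis1 leukemias); bars are group means and the grey band is the background range. Deleted and Hoxa9-Meis1 arrays do not overlap for any of the 30 genes, by the rule that chose them, while the floxed arrays lie at the Hoxa9-Meis1 level for some genes (Pou4f1, Hpgd, Cnn3) and at the deleted level for others (Stfa3, Aldh1a7, Gdf3).

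Levels of 688 measured genes were then described in 35 lists, in which 174 genes were called. Of these, 103 kept the call whichever of the 6 arrays was left out and 71 lost it with at least 1. The count of each list stands beside the shares of all genes, 9.27% higher and 6.23% lower, and no list was tested as a set. Of 9 measured genes of the HoxA cluster, 2 were called higher and 1 lower, with a median difference of 0.26 (0.75 with genes of a mean level under 6 left out). Hoxa10, a partner of Hoxa9 in MLL leukemia, was at 8.75, 8.84 and 5.90 in the deleted leukemias and at 3.77, 3.39 and 3.51, in the background range, in the Hoxa9-Meis1 group, at least 8.69-fold higher (difference 4.27, limma adjusted p = 0.00324). Hoxa3 was at 8.57, 8.30 and 11.24 against 6.49, 7.0 and 7.24 (difference 2.46, limma adjusted p = 0.034). Deleted array 6 was the lowest for Hoxa10 and the highest for Hoxa3, and without it the differences were 5.23 and 1.53. The call of Hoxa3 ended without any 1 of the Hoxa9-Meis1 arrays (limma adjusted p up to 0.117), with a pseudocount of 32, with the mean of its probe sets and with only the 6 arrays compared. Hoxa9, described above, was the member called lower.

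The other HoxA genes did not pass in the deleted leukemias, and all but Hoxa13 were called higher than Hoxa9-Meis1 in the floxed ones. Hoxa5 was at 6.66, 6.61 and 6.94 against 6.64, 6.44 and 6.36 (difference 0.26, SE 0.14, limma adjusted p = 0.271), with floxed values of 9.98, 9.66 and 9.74. Hoxa7 was at 8.58, 8.38 and 8.03 against 7.39, 7.53 and 7.82, with no overlap between the groups (difference 0.75, limma adjusted p = 0.104, and 0.0354 with only the 6 arrays compared and 0.021 with array weights), and floxed values of 10.87, 9.71 and 10.20. Hoxa2 (difference -0.01, SE 0.28), Hoxa4 (0.03, SE 0.25), Hoxa11 (0.35, SE 0.14) and Hoxa13 (0.18, SE 0.10) did not pass. A p that misses the threshold does not show that these levels were equal. The floxed leukemias were above the Hoxa9-Meis1 group by 2.25 for Hoxa2, 2.23 for Hoxa4 and 1.15 for Hoxa11, all called, and by 0.11 for Hoxa13, which was not.

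Of 24 measured genes of the HoxB, HoxC and HoxD clusters, 3 were called higher and 0 lower (median difference 0.07), and all 3 lie in the HoxB cluster. The share higher, 12.5%, was near the 9.27% of all genes. Hoxb4, a gene that expands blood stem cells when forced, was at 9.82, 9.67 and 9.49 against 7.04, 6.85 and 6.80 (6.79-fold, limma adjusted p = 6.64e-06), and floxed leukemias were at 9.04, 9.29 and 9.37. With the mean of its probe sets its difference of 2.76 was 1.74. Hoxb3 was at 8.12, 7.54 and 8.22 against 6.24, 5.72 and 6.38 (3.6-fold, limma adjusted p = 0.000816), and Hoxb13 at 8.22, 7.95 and 8.10 against 6.93, 7.20 and 6.65 (2.24-fold, limma adjusted p = 0.0031).

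Of 10 measured TALE homeobox genes, whose products pair with Hox proteins on DNA, 2 were higher and 1 was lower. These shares were 20% and 10%, against 9.27% and 6.23% of all genes. Besides Meis1, Pbx2 was higher (11.09, 11.47 and 11.39 against 10.44, 10.58 and 10.65, 1.7-fold, limma adjusted p = 0.00579). Tgif1, a repressor of the same family, was at 7.20, 6.03 and 7.11 against 9.29, 9.84 and 9.34 (6.54-fold lower, limma adjusted p = 0.00463). Pbx3, a partner of Hoxa9 in leukemia, was at 9.80, 9.29 and 9.22 against 8.85, 8.91 and 9.18 and did not pass (difference 0.45, SE 0.19, limma adjusted p = 0.144), whereas the floxed leukemias were above Hoxa9-Meis1 by 2.46. Meis2, Meis3, Pbx4, Pknox1, Pknox2 and Tgif2 differed by -0.37 to 0.30 and did not pass.

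Of 23 measured genes of the Dot1l complex, the elongation machinery and partners of MLL, 2 were higher and 1 was lower, at a median difference of 0.00. These counts (8.70% and 4.35%) were near the shares of all genes, 9.27% and 6.23%. Aff3, an elongation scaffold gene and MLL fusion partner, was at 7.37, 6.91 and 6.74 against 9.66, 9.15 and 9.36 (5.23-fold lower, limma adjusted p = 0.006). Its paralog Aff1 was higher by 0.66 (limma adjusted p = 0.00599). Rbbp5, a subunit of MLL complexes, was higher by 0.58 (limma adjusted p = 0.016), a call that ended without deleted array 4 or Hoxa9-Meis1 array 2 (limma adjusted p up to 0.0632).

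Of 23 measured genes outside Hox that MLL fusions are known to keep active, 8 were lower in the deleted leukemias (against 6.23% of all genes) and 3 were higher, with a median difference of -0.50. Flt3, a receptor tyrosine kinase of progenitors, was at 7.03, 6.98 and 7.57 against 9.13, 9.83 and 9.47 (4.86-fold lower, limma adjusted p = 0.000626). It was highest in the floxed leukemias, at 12.15, 11.77 and 11.35, so the deleted and the floxed group lay on opposite sides of the Hoxa9-Meis1 level. The survival gene Bcl2 was at 9.24, 9.02 and 9.75 against 11.12, 11.38 and 10.92 (3.49-fold lower, limma adjusted p = 0.000646), and all 5 of its probe sets were lower.

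Msi2, an RNA-binding protein gene of stem cells, was at 7.44, 6.82 and 6.51 against 10.39, 11.19 and 8.73 (difference -3.18, limma adjusted p = 0.00889), -3.87 without Hoxa9-Meis1 array 3 and -2.11 with the mean of its 8 probe sets. Sox4, a transcription factor gene of progenitors, was at 7.98, 8.16 and 8.05 against 11.75, 11.55 and 9.37 (difference -2.82, limma adjusted p = 0.0083), and -3.59 without that array. Mef2c (difference -1.61), Adgrl4 (-1.62), Arid5b (-0.68) and Jmjd1c (-0.86) were lower too, and Jmjd1c lost its call without deleted array 5 or 6 or Hoxa9-Meis1 array 1 or 2 (limma adjusted p up to 0.0869).

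The 3 members that were higher went the other way by more than 2 on the log2 scale. Eya1, a phosphatase and transcriptional cofactor, was at 9.17, 9.03 and 9.28 against 5.98, 5.76 and 6.03 (9.43-fold, limma adjusted p = 2.11e-06), and its floxed values of 5.82, 5.65 and 5.69 were at the Hoxa9-Meis1 level. Prom1, the gene of the surface protein CD133, was at 11.68, 11.64 and 12.00 against 8.89, 8.09 and 8.63 (9.43-fold, limma adjusted p = 0.000281). Igf2bp3, an RNA-binding protein gene of fetal cells, was at 11.40, 11.29 and 11.21 against 8.59, 8.01 and 9.77 (difference 2.51, limma adjusted p = 0.00237).

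Of 23 genes described as targets of Hoxa9 and Meis1, all measured, 10 were lower in the deleted leukemias (against 6.23% of all genes). Only 1 was higher, and the median difference was -0.61. This list shares Flt3, Sox4, Msi2 and Bcl2 with the one above. Cd34, a surface marker of progenitors, was at 6.93, 6.49 and 6.25 against 9.86, 11.04 and 9.85 (12.9-fold lower, limma adjusted p = 0.00128), with floxed values of 9.16, 11.06 and 10.14 at the Hoxa9-Meis1 level. The chemokine genes Ccl4 (8.21, 7.69 and 7.64 against 11.82, 11.46 and 10.99) and Ccl3 (10.63, 9.94 and 8.21 against 13.19, 12.90 and 13.35) were lower by more than 3 on the log2 scale, with limma adjusted p of 9.21e-05 and 0.00408. The difference of Ccl3 was -3.55, and -2.86 without deleted array 6.

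Dnajc10 (difference -2.0), a chaperone of the endoplasmic reticulum, and Trib1 (-1.89), a pseudokinase that promotes myeloid leukemia, were lower as well. Foxp1 was lower by a small step (difference -0.66, limma adjusted p = 0.0363), a call that ended without deleted array 4 or 6 or Hoxa9-Meis1 array 1 or 2. Ccnd3, for cyclin D3, was the member that was higher (11.89, 12.28 and 12.15 against 10.28, 10.49 and 11.38, limma adjusted p = 0.0189), a call that ended without deleted array 5 or 6 or Hoxa9-Meis1 array 1 or 2 (limma adjusted p up to 0.0743). Myc (difference -0.50, limma adjusted p = 0.299) and Myb (0.10, limma adjusted p = 0.644) did not pass.

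**Figure D4:**
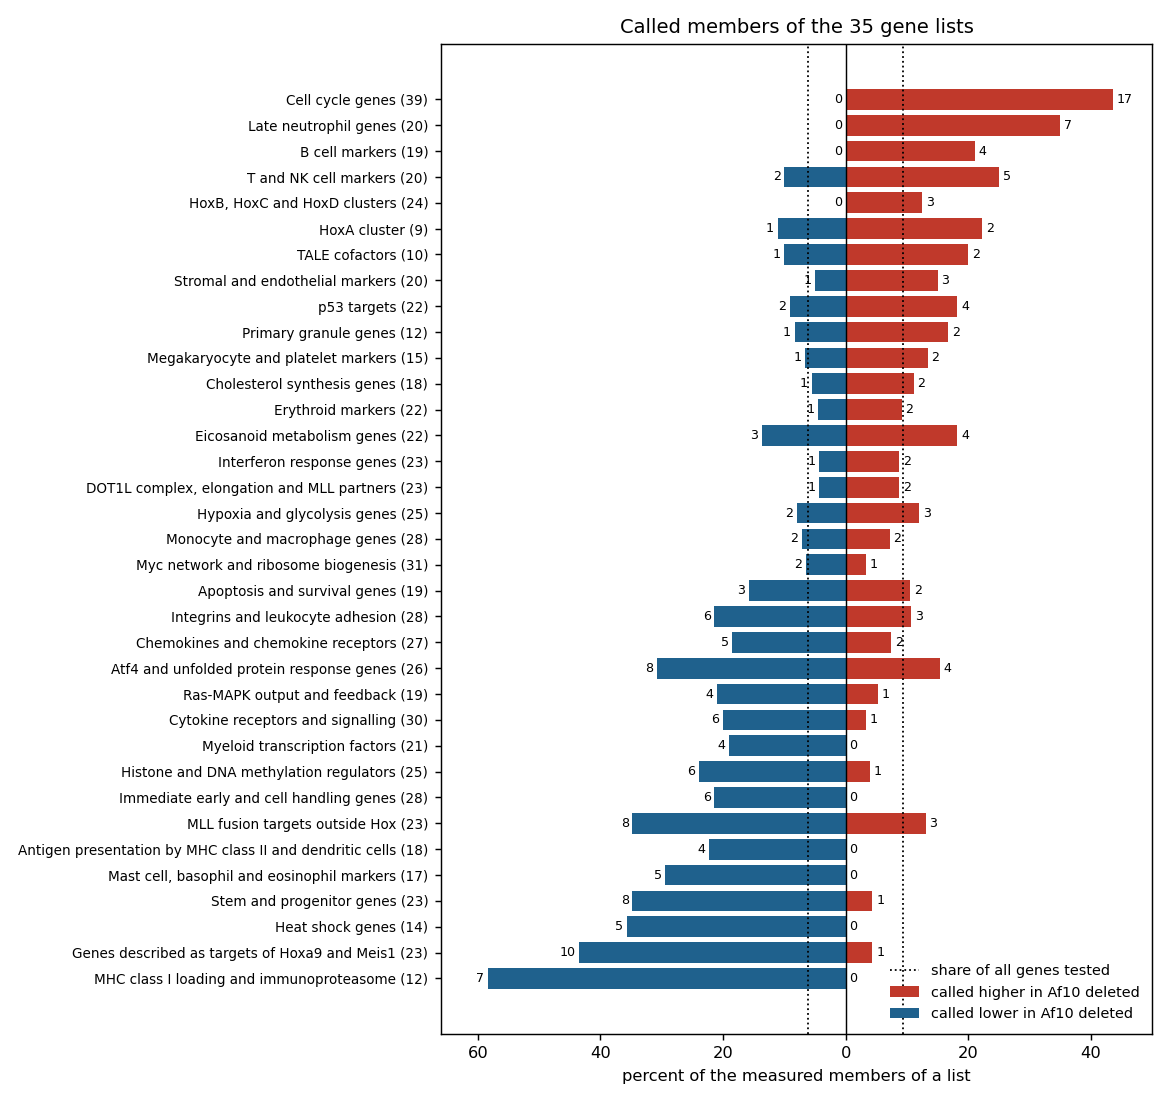
For each of 35 gene lists (measured members in brackets), the percent of members called higher (right, red) and lower (left, blue) in the deleted leukemias, with the number called at each bar's end; the dotted lines mark the shares over all genes, 9.27% higher and 6.23% lower. Cell cycle genes (17 of 39 higher) and late neutrophil genes (7 of 20 higher) stand at one end, and MHC class I genes (7 of 12 lower) and Hoxa9-Meis1 target genes (10 of 23 lower) at the other.

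Markers of the myeloid lineage and its stages came next. Of 23 stem and progenitor genes, 8 were lower (against 6.23% of all genes) and 1, Meis1, was higher. The median difference was -0.03. It was -0.45 with genes of a mean level under 6 left out and -0.20 without deleted array 6. Besides Cd34 and Sox4, Angpt1, the ligand of the receptor Tek, was at 6.42, 5.43 and 5.69 against 9.36, 9.65 and 7.77 (8.46-fold lower, limma adjusted p = 0.00779). Kit, the receptor of stem cell factor, was at 8.20, 8.11 and 8.34 against 9.37, 9.93 and 8.97 (difference -1.21, limma adjusted p = 0.009). Cd48 (difference -1.78), Gata2 (-1.78), Mycn (-1.10) and Etv6 (-0.47) were lower too. Gata2 lost its call without deleted array 5 or Hoxa9-Meis1 array 1 or 2 (limma adjusted p up to 0.0761), and Etv6 without deleted array 4 or 5 or Hoxa9-Meis1 array 1 or 2 (up to 0.115). For Mycn 1 of 3 probe sets was called, and the difference was -0.37 with their mean.

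Most genes on the list of primary granules, which are made early in granulocyte differentiation, were bright in both groups. The median level of the list was 13.08 to 13.24 on the deleted and 12.90 to 13.20 on the Hoxa9-Meis1 arrays. Mpo, for myeloperoxidase, was at 13.97, 13.88 and 13.69 against 14.24, 14.26 and 14.06 (difference -0.34, limma adjusted p = 0.094), and Elane, for neutrophil elastase, at 13.80, 13.70 and 13.85 against 13.79, 13.63 and 13.35 (0.19, limma adjusted p = 0.67). Of the 12 measured, 2 were higher (16.7%, against 9.27% of all genes) and 1 was lower (8.33%, against 6.23%). Rnase2a, the eosinophil-associated ribonuclease given above, had its Hoxa9-Meis1 mean in the background range, so it was not bright in both groups. Hp, for haptoglobin, was 2.15-fold higher (limma adjusted p = 0.0397), and Cst7, a cysteine protease inhibitor, was 4.11-fold lower (9.62, 9.92 and 9.91 against 12.00, 12.12 and 11.45, limma adjusted p = 0.000855). The call of Hp ended without any 1 deleted array and without Hoxa9-Meis1 array 1 or 2 (limma adjusted p up to 0.104).

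Of 20 measured late neutrophil genes, 7 were higher (against 9.27% of all genes) and 0 lower. The median difference was 1.05, and 17 of the 20 differences were above 0. That median rested on single arrays, at 0.38 without Hoxa9-Meis1 array 2 and 1.61 without Hoxa9-Meis1 array 3. Wfdc21 was at 13.53, 13.51 and 13.47 against 10.42, 9.54 and 10.66 (9.83-fold, limma adjusted p = 0.00118). Cxcr2, the chemokine receptor of neutrophils, was at 10.41, 10.92 and 10.03 against 8.49, 8.11 and 8.52 (difference 2.08, limma adjusted p = 0.00126), and Padi4 (1.94) and Lrg1 (1.76) were higher too. Fpr2, a formyl peptide receptor, was at 12.54, 13.18 and 11.21 against 7.84, 6.54 and 11.16, where Hoxa9-Meis1 array 3 reached the lowest deleted array (difference 3.80, limma adjusted p = 0.0343, 5.12 without that array and 2.81 without Hoxa9-Meis1 array 2). Lcn2, for lipocalin 2, was at 14.10, 13.99 and 13.96 against 12.00, 10.90 and 12.68 (difference 2.15, limma adjusted p = 0.0248).

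Several other genes of the list did not pass. S100a8 was at 14.40, 14.51 and 14.36 against 14.21, 13.89 and 14.22 (limma adjusted p = 0.215), and Ltf, for lactoferrin, at 13.24, 12.16 and 10.28 against 12.25, 11.51 and 12.61 (limma adjusted p = 0.868), so its groups overlapped. Camp and Ngp did not pass either. The call of Fpr2 ended without deleted array 4 or 5 or Hoxa9-Meis1 array 1 or 2 (limma adjusted p up to 0.118), and that of Lcn2 without any 1 deleted array and without Hoxa9-Meis1 array 1 or 2 (up to 0.0774). The number called was 5 to 9 as arrays were left out. In bulk samples a change in the share of cells of a type and a change in RNA per cell cannot be told apart.

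Of 21 myeloid transcription factor genes, 4 were lower and 0 higher. Irf8, which directs progenitors to monocytes and dendritic cells, was at 9.28, 9.69 and 9.07 against 10.65, 10.99 and 12.02 (3.66-fold lower, limma adjusted p = 0.00812), with floxed values of 11.27, 10.78 and 11.62 in the Hoxa9-Meis1 range. Egr1 and Gata2 are given with other lists, and Gata1 was dim in both groups (5.41 to 6.14) and lower by 0.45 on the log2 scale, a call that ended without any 1 array except Hoxa9-Meis1 array 3. Spi1, for PU.1, was at 12.17, 12.37 and 12.25 against 11.54, 11.36 and 11.75 (limma adjusted p = 0.0849), and Cebpa and Gfi1 did not pass. Of 28 monocyte and macrophage genes, 2 were higher and 2 lower (7.14% each), near the 9.27% and 6.23% of all genes. Ly86, a partner of a Toll-like receptor homolog, was at 9.03, 9.37 and 8.67 against 11.98, 12.12 and 11.93 (7.92-fold lower, limma adjusted p = 1.86e-05), and floxed leukemias matched Hoxa9-Meis1 at 11.86, 12.14 and 11.86. Vcam1 was lower by 1.34 on the log2 scale, and C1qc and Fcgr1 were higher by 0.90 and 0.62. The calls of the last 3 ended when some single arrays were left out, among them deleted array 4 and Hoxa9-Meis1 array 1 for all 3 (limma adjusted p up to 0.145).

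Genes of antigen presentation were split into class I and class II lists. Of 12 measured genes of MHC class I loading and the immunoproteasome, 7 were lower (against 6.23% of all genes) and 0 higher. The median difference was -0.56, and all 12 differences were below 0. Psmb8, a subunit of the immunoproteasome, was at 11.20, 11.31 and 11.19 against 12.57, 12.73 and 12.84 (2.79-fold lower, limma adjusted p = 0.000145). H2-K1, a classical class I heavy chain, was at 12.15, 11.91 and 11.61 against 13.33, 13.13 and 13.22 (2.52-fold lower, limma adjusted p = 0.00065), by 2 of its 4 probe sets, and it belongs to a family of near copies. Tap1, a peptide transporter subunit, was at 9.74, 9.37 and 9.85 against 11.01, 10.77 and 10.68 (difference -1.17, limma adjusted p = 0.00153, and 0.0693 with the mean of its probe sets).

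Psmb10 (difference -1.26), Psmb9 (-0.69), Nlrc5, an activator of class I transcription (-1.37), and the light chain gene B2m (-0.40) completed the 7. Floxed leukemias stood near the Hoxa9-Meis1 level, at 12.88, 13.07 and 12.70 for Psmb8 and 9.05, 9.22 and 8.07 for Nlrc5. B2m lost its call without any 1 of the 6 arrays (limma adjusted p up to 0.149), and Nlrc5 without any but Hoxa9-Meis1 array 2 (up to 0.0817). The number called was 5 or 6 as arrays were left out.

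Of 18 genes of MHC class II presentation and dendritic cells, 4 were lower (22.2%, against 6.23% of all genes) and 0 higher. The 4 were Flt3 and the 3 genes that follow. H2-Ob, a chain of the class II modulator H2-O, was at 5.57, 5.23 and 4.69 against 8.92, 9.11 and 8.24 (12-fold lower, limma adjusted p = 0.00275). The chaperone chain gene H2-DMa was lower by 1.31 and H2-Oa by 1.02 on the log2 scale (limma adjusted p = 0.0103 and 0.0111). The classical class II genes H2-Aa (difference -0.02, limma adjusted p = 0.974) and H2-Ab1 (-0.20, limma adjusted p = 0.846) and the invariant chain gene Cd74 (0.79, limma adjusted p = 0.505) did not pass.

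Markers of other cells that unsorted or sorted marrow can hold moved in both directions. Of 17 mast cell, basophil and eosinophil markers, 5 were lower (29.4%, against 6.23% of all genes) and 0 higher. Cpa3, Kit and Gata2, given above, were among the 5. Siglecf, a sialic acid receptor of eosinophils, was at 10.41, 10.16 and 8.45 against 11.87, 11.95 and 11.30 (difference -2.03, limma adjusted p = 0.0167, and -1.42 without deleted array 6). Fcer1a, a chain of the IgE receptor, was at 5.28, 4.95 and 4.49 against 7.09, 6.31 and 5.45 (difference -1.38, limma adjusted p = 0.0353). The call of Siglecf ended without Hoxa9-Meis1 array 1 or 2 (limma adjusted p up to 0.0635) and that of Fcer1a without any 1 array except Hoxa9-Meis1 array 3 (up to 0.102). The summed intensity of the 17 markers was 7711 to 8862 on the deleted and 8154 to 23448 on the Hoxa9-Meis1 arrays.

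Hoxa9-Meis1 arrays 1 and 2 were high together in several of these genes and in some progenitor genes, while array 3 was nearer to the deleted leukemias. Ms4a2, another chain of the IgE receptor, was at 11.23, 10.48 and 7.98 in Hoxa9-Meis1 leukemias against 8.14, 7.48 and 7.54 in deleted ones (limma adjusted p = 0.0787). Cd27, a receptor of lymphocytes and progenitors, was at 7.23, 7.12 and 7.26 against 10.49, 10.66 and 7.95 (difference -2.50, limma adjusted p = 0.026), and -3.37 without Hoxa9-Meis1 array 3. That call ended without any other 1 array (limma adjusted p up to 0.0991). Array 3 was likewise the lowest of its group for Cpa3, Kit, Sox4, Angpt1 and Msi2, and the part of these cell markers in their differences was not tested.

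Of 19 B cell markers, 4 were higher in the deleted leukemias (21.1%, against 9.27% of all genes) and 0 lower. The median difference of the list was 0.07, near the 0.05 of all genes. Jchain, which joins immunoglobulin chains in plasma cells, was at 11.56, 11.22 and 11.71 against 7.90, 7.13 and 8.04 (14-fold, limma adjusted p = 0.000761), and Bank1 at 8.41, 8.94 and 7.42 against 5.53, 6.20 and 5.77 (5.37-fold, limma adjusted p = 0.00292). Cd79a was higher by 1.30 and Igll1 by 0.83. The summed intensity of the list was 7842 to 14718 on the deleted, 6447 to 12083 on the floxed and 3835 to 5371 on the Hoxa9-Meis1 arrays. That sum includes Jchain and the immunoglobulin gene Ighm and is weighted to bright genes. The B cell genes Pax5 (6.92 to 7.23 against 6.78 to 6.92, limma adjusted p = 0.261) and Ms4a1 (limma adjusted p = 0.144) did not pass. Cd79a lost its call without deleted array 4 or 6 or Hoxa9-Meis1 array 1, and Igll1 without any 1 of the 6 arrays (limma adjusted p up to 0.114).

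Of 20 T and NK cell markers, 5 were higher (25%, against 9.27% of all genes) and 2 lower (10%, against 6.23%). Gzma, for granzyme A, was at 6.26, 6.13 and 5.78 against 4.75, 4.69 and 4.75 (2.51-fold, limma adjusted p = 0.00153), and Klrd1 at 5.64, 5.05 and 5.27, at least 1.52-fold above the background range in which its Hoxa9-Meis1 mean lay. Il2rb (difference 1.25), Cd3e (1.02) and Cd3d (0.73) were higher, and Cd27 and Prf1 were lower. Levels of T cell genes were low in both groups, as for Cd3e at 7.68, 7.74 and 7.88 against 6.95, 6.63 and 6.67. The calls of Cd3d and Prf1 ended when single arrays were left out, among them deleted array 5 and Hoxa9-Meis1 arrays 1 and 2 for both (limma adjusted p up to 0.113).

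Of 22 erythroid markers, 2 were higher (Hemgn, 2.18-fold, and Klf1, 1.75-fold) and 1, Gata1, was lower, and the summed intensity was 12456 to 13156 against 12672 to 13181. Those counts, 9.09% and 4.55%, were near the 9.27% and 6.23% of all genes. Klf1 lost its call without deleted array 4 or 6 or Hoxa9-Meis1 array 1 or 2 (limma adjusted p up to 0.134). Of 15 megakaryocyte and platelet markers, 2 were higher (13.3%) and 1 was lower (6.67%), beside the same shares of all genes. Itgb3, an integrin chain of platelets that is also present on leukemia cells, was at 7.77, 8.01 and 7.53 against 10.49, 10.88 and 10.52 (7.26-fold lower, limma adjusted p = 1.79e-05). Cd9 was at 9.77, 10.04 and 10.27 against 8.35, 8.08 and 8.35 (3.41-fold higher, limma adjusted p = 0.00127) and Selp was 2.97-fold higher.

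Of 20 stromal and endothelial markers, 3 were higher (15%, against 9.27% of all genes) and 1 was lower (5%, against 6.23%). The collagen gene Col5a1 was at 8.60, 10.46 and 10.11 against 6.24, 6.19 and 6.39 (difference 3.45, limma adjusted p = 0.00179), and Acta2, for smooth muscle actin, at 8.90, 10.71 and 9.65 against 7.36, 6.70 and 7.56 (2.55, limma adjusted p = 0.00421). With the mean of their probe sets these differences were 1.93 and 1.29. Pecam1, an adhesion molecule of endothelium and myeloid cells, was at 7.80, 7.88 and 9.39 against 10.49, 11.04 and 9.95 (4.4-fold lower, limma adjusted p = 0.0137), and Cdh5 was 1.49-fold higher. The summed intensity of the list was 2780 to 5140 against 2887 to 4668. Pecam1 lost its call without deleted array 4 or 5 or Hoxa9-Meis1 array 2 (limma adjusted p up to 0.0539), and Cdh5 without any 1 of the 6 arrays (up to 0.131).

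Of 39 measured cell cycle genes, 17 were called higher in the deleted leukemias (against 9.27% of all genes) and 0 lower, with a median difference of 0.51, and 36 of the 39 differences were above 0. Called genes other than Cdkn2c, Cdkn1c, Ccnd3, Mcm7 and Rrm2 differed by 0.53 (Bub1b) to 1.17 (Plk1) on the log2 scale. Plk1, a mitotic kinase, was at 10.24, 10.56 and 10.37 against 8.91, 9.32 and 9.43 (2.25-fold, limma adjusted p = 0.00548), and Aurka, another, at 11.03, 11.12 and 11.10 against 9.87, 9.77 and 10.27 (difference 1.11, limma adjusted p = 0.00151). Cdk1, the kinase that starts mitosis, was at 11.24, 11.32 and 11.06 against 9.89, 10.19 and 10.40 (1.05, limma adjusted p = 0.00243). Aurkb (0.96), Ccnb2 (0.86), Mad2l1 (0.84), Ccne2 (0.82), Ccna2 (0.75), Bub1 (0.65), Top2a (0.63), Cdc20 (0.58) and Bub1b (0.53) followed. The floxed leukemias were near the deleted ones. The median level of the list was 11.03 to 11.10 on the deleted, 10.83 to 10.98 on the floxed and 9.87 to 10.40 on the Hoxa9-Meis1 arrays.

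Inhibitors of the cycle were among the called genes as well. Cdkn2c, which inhibits Cdk4 and Cdk6, differed most in the list, at 12.45, 12.54 and 12.21 against 9.61, 10.07 and 10.16 (5.49-fold, limma adjusted p = 3.2e-05). Cdkn1c was at 8.59, 8.24 and 9.08 against 7.53, 6.58 and 6.97 (3.05-fold, limma adjusted p = 0.0141), a call that ended without Hoxa9-Meis1 array 2 (limma adjusted p = 0.0549). Mki67, the proliferation marker, was at 12.99, 13.01 and 13.10 against 12.85, 12.98 and 12.94 and did not pass (difference 0.11, SE 0.10, limma adjusted p = 0.528). Cdk6 had a difference of -0.56 (limma adjusted p = 0.0625), against the direction of the list.

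The count of 17 was 9 without deleted array 5 and without Hoxa9-Meis1 array 2, 10 without deleted array 6 and 11 without Hoxa9-Meis1 array 1. Ccne2 lost its call without deleted array 5 or 6 or Hoxa9-Meis1 array 1 (limma adjusted p up to 0.0655), Cdc20 without any 1 array except Hoxa9-Meis1 array 1 (up to 0.0821), Bub1b without any 1 except Hoxa9-Meis1 array 3 (up to 0.137), Bub1 without deleted array 4 or 5 or Hoxa9-Meis1 array 2 (up to 0.0697) and Top2a without deleted array 5 or 6 or Hoxa9-Meis1 array 1 or 2 (up to 0.0885). The calls of Mcm7 and Rrm2 ended without any 1 of the 6 (up to 0.167), where their differences were 0.41 to 0.49 and 0.36 to 0.45. The calls of Bub1b, Cdc20, Mcm7 and Rrm2 also ended with quantile normalization, where Cdc20 was at limma adjusted p = 0.0523. Birc5, a survivin gene of mitosis counted with survival genes, was likewise higher (11.40, 11.38 and 11.32 against 10.33, 10.45 and 10.89, 1.75-fold, limma adjusted p = 0.00676).

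The promoters of these genes were read for letters that are common at cell cycle promoters, since the called members were all higher. Windows of 300 bases, from 250 before to 50 after the start, came from RefSeq (GRCm38.p6) for 13 of the 17 called genes. A gene was counted if any of its listed windows held the letters. CCAAT on either strand, the site of NF-Y, was in 12 of the 13 genes, against 42.0% of 14453 genes tested. Counted by promoter, it was in 37.4% of all 32851 listed. TTTGAA on either strand, the core of the CHR element, was in 7 of the 13, against 15.7% and 17.9%. Over all 31 cell cycle genes with a listed promoter, called or not, CCAAT was in 23 and TTTGAA in 11. Of the called genes 7 held both, in the same or different windows, against 7.35% of the genes tested. Matches of these motifs can share at most 1 base, and a match is a description of these letters, not of a bound site. Below are the last 100 bases before the start of Ccnb2 (chr9:70421555-70421654, minus strand), Cdk1 (chr10:69352913-69353012, minus strand) and Cdc20 (chr4:118437344-118437443, minus strand), each 5' to 3' on the gene's strand. They show the spacing of the motifs, with TTTGAA in capitals, as well as CCAAT, which reads ATTGG on the other strand.
Ccnb2: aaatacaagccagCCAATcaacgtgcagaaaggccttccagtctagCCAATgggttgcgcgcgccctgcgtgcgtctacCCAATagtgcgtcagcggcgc
Cdk1: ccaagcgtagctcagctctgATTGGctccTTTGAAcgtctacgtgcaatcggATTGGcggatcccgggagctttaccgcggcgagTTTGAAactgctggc
Cdc20: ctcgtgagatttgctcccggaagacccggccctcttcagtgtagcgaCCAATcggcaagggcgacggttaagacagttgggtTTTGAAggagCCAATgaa
Ccnb2 holds 3 CCAAT matches in this stretch, at 87, 54 and 21 bases before the start, and no TTTGAA. It was at 11.47, 11.14 and 11.39 in deleted against 10.43, 10.40 and 10.59 in Hoxa9-Meis1 leukemias. Cdk1 holds 2 matches of each motif and Cdc20 2 of CCAAT and 1 of TTTGAA.

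**Figure D5:**
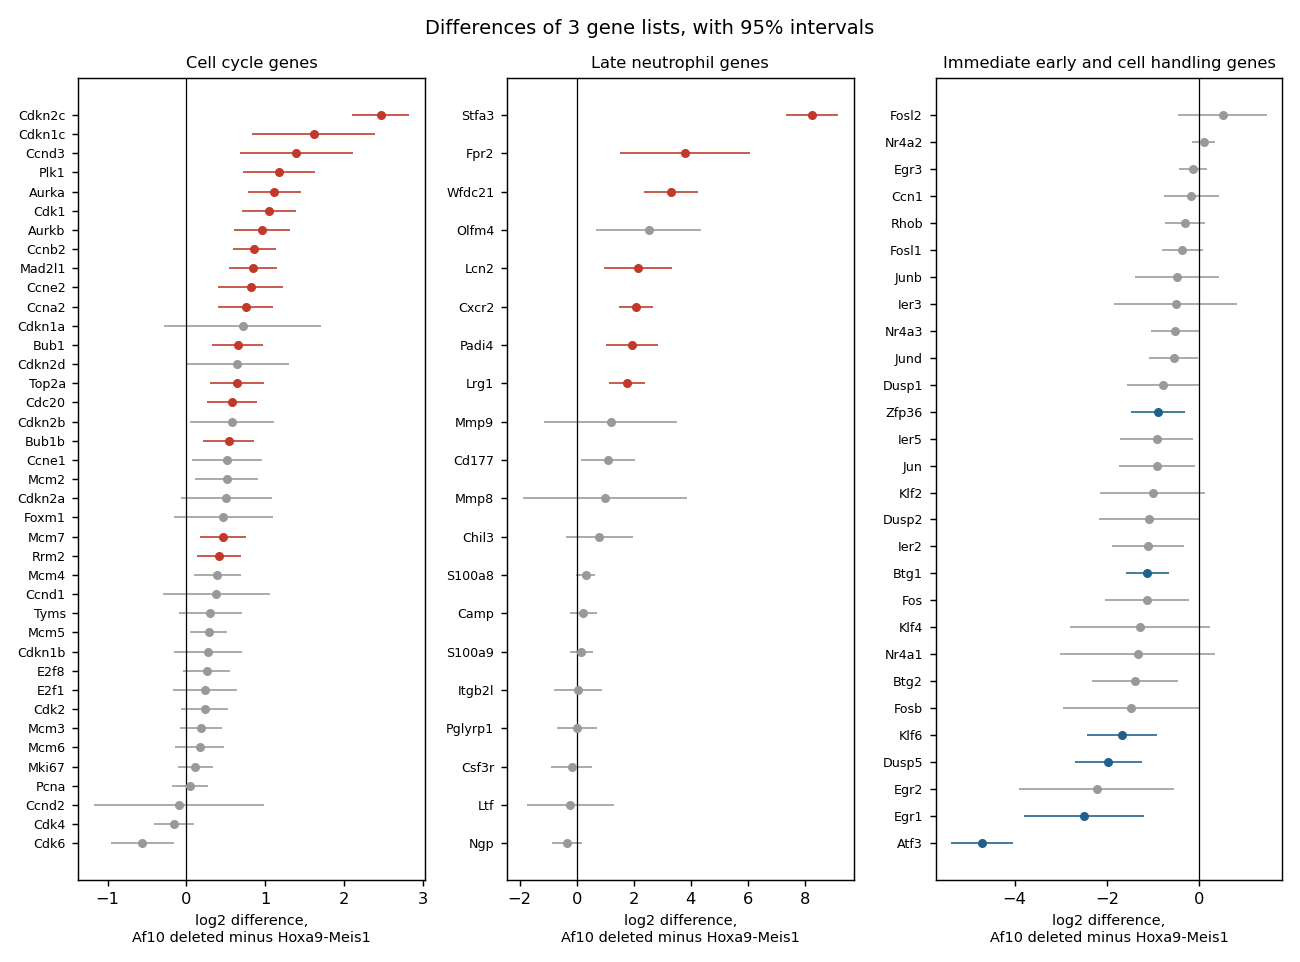
Log2 difference of the deleted minus the Hoxa9-Meis1 leukemias with its 95% interval from limma for each measured gene of the cell cycle, late neutrophil and immediate early lists (3 panels, 1 gene per line); red marks genes called higher, blue genes called lower and grey genes not called. Of the cell cycle genes 36 of 39 lie above 0, of the late neutrophil genes 17 of 20, and of the immediate early genes 26 of 28 lie below 0.

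Of 28 measured genes of the immediate early response, which cells also induce during handling, 6 were lower in the deleted leukemias (against 6.23% of all genes). Of the rest, 0 were higher and 22 did not pass. The median difference was -0.97, and 26 of the 28 differences were below 0. Atf3, a stress-induced transcription factor gene, was at 7.44, 6.77 and 7.30 against 12.04, 11.32 and 12.27 (26.1-fold lower, limma adjusted p = 2.52e-05), and floxed leukemias were lower still, at 6.61, 5.92 and 6.62. Egr1, an early growth response gene, was at 10.60, 10.02 and 9.58 against 13.58, 11.54 and 12.55 (5.63-fold lower, limma adjusted p = 0.0196). Klf6 was at 12.27, 11.78 and 10.85 against 13.50, 13.02 and 13.39 (3.18-fold lower, limma adjusted p = 0.0109), and all 5 of its probe sets were lower.

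Dusp5 was at 7.52, 8.38 and 7.81 against 10.60, 9.59 and 9.42 (3.92-fold lower, limma adjusted p = 0.00401), and Btg1 and Zfp36, an mRNA decay factor gene, were lower by 1.13 and 0.89 on the log2 scale. Fos (13.17, 12.51 and 11.75 against 13.70, 13.32 and 13.83, limma adjusted p = 0.0933), Jun (limma adjusted p = 0.128) and Nr4a1 (limma adjusted p = 0.287) did not pass. Deleted array 6 was the lowest of all 6 arrays for Fos, Klf6 and Egr1. The median level of the list was 10.16 to 10.86 on the deleted, 9.02 to 10.50 on the floxed and 11.20 to 12.10 on the Hoxa9-Meis1 arrays. The deleted cells were sorted for tdTomato and the Hoxa9-Meis1 cells were not, and this difference in handling cannot be told apart from the oncogene. The Gapdh 3' minus 5' difference also separated the groups, at 0.44 to 0.60 against 0.67 to 0.81, and its part in the result was not tested. Egr1 lost its call without deleted array 5 or 6 or Hoxa9-Meis1 array 1 (limma adjusted p up to 0.0673), and Zfp36 without any 1 array except deleted array 4 (up to 0.141). The count of 6 was 4 without deleted array 6 and without Hoxa9-Meis1 array 1, and 8 without Hoxa9-Meis1 array 2.

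Heat shock genes are also induced by stress. Of 14 measured, 5 were lower (against 6.23% of all genes), 0 were higher and 9 did not pass, at a median difference of -0.38. Hspa1a, the inducible Hsp70 gene, was at 7.64, 4.75 and 5.79 against 12.39, 9.52 and 11.74 (difference -5.16, 35.7-fold lower, limma adjusted p = 0.00729). Its spread was wide in both groups, and the difference was -5.95 without deleted array 4, -4.50 without deleted array 5 and -6.0 without Hoxa9-Meis1 array 2. The near copy Hspa1b was at 9.56, 9.88 and 10.74 against 13.29, 10.83 and 12.47 and did not pass (limma adjusted p = 0.0909), and probes of the pair can cross-hybridise.

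Dnaja1 (difference -0.73), Dnajb1 (-0.56), Hspa5 (-0.55) and Hspb1 (-0.46) moved by less than 1 on the log2 scale. The calls of Dnaja1, Dnajb1 and Hspb1 ended without any 1 deleted array and without Hoxa9-Meis1 array 1, those of Dnajb1 and Hspb1 without array 2 as well, and that of Hspa5 without Hoxa9-Meis1 array 1 (limma adjusted p up to 0.15). The count of 5 was 1 without Hoxa9-Meis1 array 1 and 2 without any 1 deleted array. The summed intensity of the 14 genes was 59597 to 61606 on the deleted, 56713 to 60490 on the floxed and 70340 to 102232 on the Hoxa9-Meis1 arrays.

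Promoters of both lists were read in the same way. GAANNTTC, a pair of inverted units of the heat shock element that reads the same on both strands, was in 8 of 11 heat shock genes with a listed promoter and in 3 of the 5 called, against 7.6% of the genes tested and 7.86% of all promoters. The CArG box, the site of serum response factor, on either strand, was in 3 of 24 immediate early genes with a listed promoter and in 2 of the 5 called, against 1.58% and 1.63%. The stretches that follow hold the matches, in capitals, for Hspa1a (chr17:34972227-34972286, minus strand), Hspb1 (chr5:135887789-135887848, plus strand), Zfp36 (chr7:28379249-28379328, minus strand) and Dusp5 (chr19:53529045-53529104, plus strand), 5' to 3' on the gene's strand. The first pair shows GAANNTTC and the second pair the CArG box.
Hspa1a: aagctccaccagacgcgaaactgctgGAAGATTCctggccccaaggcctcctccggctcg
Hspb1: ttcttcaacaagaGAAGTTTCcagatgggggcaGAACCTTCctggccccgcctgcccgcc
Zfp36: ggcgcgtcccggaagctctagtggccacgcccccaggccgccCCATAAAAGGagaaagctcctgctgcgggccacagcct
Dusp5: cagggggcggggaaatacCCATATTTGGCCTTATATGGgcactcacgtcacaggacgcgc
Hspa1a has 1 match in this stretch and Hspb1 has 2, while Dusp5 has 2 CArG boxes side by side and Zfp36 has 1.

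Of 26 measured genes of the Atf4 pathway and the unfolded protein response, 4 were higher and 8 lower, at a median difference of -0.37. These shares were 15.4% and 30.8%, against 9.27% and 6.23% of all genes. The median level of the list was 10.69 to 10.90 on the deleted, 10.33 to 10.63 on the floxed and 11.04 to 11.19 on the Hoxa9-Meis1 arrays. Asns, for asparagine synthetase, a target of Atf4, was at 12.21, 12.19 and 12.08 against 9.74, 9.21 and 9.36 (6.61-fold higher, limma adjusted p = 2.81e-05). Atf5 (3.61-fold) and the glutathione-degrading enzyme gene Chac1 (2.91-fold), also known Atf4 targets, were higher, with limma adjusted p of 0.00217 and 0.00309, and the amino acid transporter gene Slc7a5 was higher by 0.77. Further Atf4 targets went the other way: Ddit3, for the factor CHOP, was at 9.77, 9.83 and 9.52 against 11.26, 10.64 and 10.76 (difference -1.18, limma adjusted p = 0.00469), and Psat1 was lower by 0.73 (limma adjusted p = 0.0106). Atf3, given with the immediate early genes, was lower too, so the called Atf4 targets went both ways.

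The chaperone genes of the endoplasmic reticulum that were called were all lower: Hspa5, Dnajb9 (difference -1.21), Pdia4, Pdia6 and Dnajc3. The count of lower genes was 3 without Hoxa9-Meis1 array 1. Leaving out that array ended the calls of all 5 of these chaperones, and Slc7a5 lost its call without it as well. The call of Pdia6 ended without any 1 of the 6 arrays (limma adjusted p up to 0.104). That of Pdia4 ended also without deleted array 5 or 6 or Hoxa9-Meis1 array 2 (up to 0.0645). That of Slc7a5 ended also without deleted array 4 or 5 or Hoxa9-Meis1 array 2 (up to 0.116). Dnajc3 did not pass with the mean of its probe sets (limma adjusted p = 0.395). Trib3, a further Atf4 target, did not pass (difference -0.03, limma adjusted p = 0.921).

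Among cytokine receptor and signalling genes, 6 of 30 were lower (20%, against 6.23% of all genes) and 1 was higher (3.33%, against 9.27%). Il3ra, the interleukin 3 receptor chain, was at 7.84, 7.79 and 8.49 against 9.13, 9.47 and 9.22 (2.35-fold lower, limma adjusted p = 0.00323), and Flt3 and Kit are given above. The signalling chain gene Csf2rb was higher (12.10, 12.04 and 12.07 against 11.26, 11.25 and 11.47, difference 0.74, limma adjusted p = 0.00203). Il6st was lower by 1.61, Il10ra by 1.35, and Ifnar2 was lower too. Il6st lost its call without deleted array 5 (limma adjusted p = 0.0854), Il10ra without deleted array 4 or 6 or Hoxa9-Meis1 array 1 or 3, and Ifnar2 without any 1 array except deleted array 5 (up to 0.111).

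Of 19 genes of Ras-MAPK output and feedback, 4 were lower (21.1%, against 6.23% of all genes) and 1 was higher (5.26%, against 9.27%). Spred1, a negative regulator of Ras, was at 5.99, 5.94 and 5.74 against 7.65, 7.69 and 8.49 (4.15-fold lower, limma adjusted p = 0.00604), by 7 of its 8 probe sets. Dusp5 and Egr1 are members as well, and Spry1 was lower by 0.85. Rasgrp4, a Ras activator of myeloid cells, was higher at 10.22, 10.80 and 10.71 against 8.52, 8.51 and 9.93 (3.01-fold, limma adjusted p = 0.0363). The calls of Spry1 and Rasgrp4 ended without any 1 array except Hoxa9-Meis1 array 3 (limma adjusted p up to 0.13).

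Of 19 apoptosis and survival genes, 2 were higher (10.5%, near the 9.27% of all genes) and 3 lower (15.8%, against 6.23%). Bid, a promoter of cell death, was at 8.98, 9.09 and 7.97 against 10.42, 10.69 and 10.44 (3.56-fold lower, limma adjusted p = 0.00254), so a promoter of death and the survival gene Bcl2 were lower together. Bcl2l1, for Bcl-xL, was higher by 0.59, a call that ended without any 1 of the 6 arrays (limma adjusted p up to 0.126). Of 22 p53 targets, 4 were higher (18.2%, against 9.27% of all genes) and 2 lower (9.09%, against 6.23%). Perp was at 7.48, 8.40 and 8.77 against the background range, at least 11.4-fold higher (limma adjusted p = 0.000311), and Zmat3 was 1.97-fold and Gtse1 1.81-fold higher. Pmaip1, for Noxa, was 3.08-fold lower (limma adjusted p = 0.0318), a call that ended without any 1 array except deleted array 4 (up to 0.114).

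Of 27 chemokine and chemokine receptor genes, 5 were lower (18.5%, against 6.23% of all genes) and 2 higher (7.41%, against 9.27%). Ccl9 was at 10.38, 9.74 and 9.22 against 12.76, 12.82 and 12.87 (8.19-fold lower, limma adjusted p = 0.000106), and floxed leukemias were level with Hoxa9-Meis1 at 12.76, 12.73 and 12.47. The summed intensity of the list was 20368 to 21345 on the deleted, 26034 to 29993 on the floxed and 34776 to 46392 on the Hoxa9-Meis1 arrays. That sum is weighted to bright genes such as Ccl9 and Ccl3. The median difference of the list was -0.06, with 11 differences above 0 and 16 below. Ccl3 and Ccl4 are given above, and Ccl2 and Ccr1 were lower by 2.03 and 1.87, and both calls ended without Hoxa9-Meis1 array 1 or 3, that of Ccl2 also without any 1 deleted array and that of Ccr1 without Hoxa9-Meis1 array 2 (limma adjusted p up to 0.121). Besides Cxcr2, Cxcl10 was higher (8.07, 7.15 and 9.39 against 6.40, 5.63 and 5.82, difference 2.26, limma adjusted p = 0.0141), 1.66 without deleted array 6, and its call ended without Hoxa9-Meis1 array 2 (limma adjusted p = 0.0548).

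Of 28 integrin and adhesion genes, 6 were lower (21.4%, against 6.23% of all genes) and 3 higher (10.7%, near the 9.27% of all genes). Itgb7, a chain of gut homing integrins, was at 9.27, 8.70 and 9.0 against 10.69, 10.78 and 11.75 (4.24-fold lower, limma adjusted p = 0.00227). Itgb5, a vitronectin receptor chain, was at 10.95, 11.14 and 11.38 against 9.35, 9.86 and 9.43 (3.05-fold higher, limma adjusted p = 0.000505), and Itgav, its partner, was higher by 0.70, a call that ended without deleted array 4 or Hoxa9-Meis1 array 1 or 2 (limma adjusted p up to 0.0767). Itgb3, which pairs with the same partner, was lower as given above. Itga4 and Itga6 were lower by 0.69 and 1.12. The call of Itga4 ended without deleted array 5 or 6 or Hoxa9-Meis1 array 1 or 2 (limma adjusted p up to 0.126). That of Itga6 ended without any 1 array except Hoxa9-Meis1 array 3 (up to 0.125). It also ended with a pseudocount of 32, with only the 6 arrays compared and with quantile normalization. The count of lower genes was 2 without Hoxa9-Meis1 array 2, 3 without any 1 deleted array or without Hoxa9-Meis1 array 1, and 9 without Hoxa9-Meis1 array 3.

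Of 23 interferon response genes, 2 were higher and 1 was lower (8.70% and 4.35%), near the 9.27% and 6.23% of all genes. Ifit2 was at 9.35, 9.21 and 9.44 against 7.68, 8.5 and 8.03 (2.4-fold higher, limma adjusted p = 0.00471). Gbp3 was lower at 8.58, 8.35 and 6.44 against 9.82, 9.91 and 9.45 (difference -1.93, limma adjusted p = 0.0449), -1.26 without deleted array 6, and its call ended without any 1 array except deleted array 4 (limma adjusted p up to 0.129).

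Of 25 regulators of histone and DNA methylation, 6 were lower (24%, against 6.23% of all genes) and 1 was higher (4%, against 9.27%). Kdm5b, a demethylase of histone H3 lysine 4, was at 7.28, 6.92 and 6.95 against 10.71, 10.56 and 9.63 (9.52-fold lower, limma adjusted p = 0.000204), by all 4 of its probe sets, and floxed leukemias were near the deleted level at 7.14, 7.93 and 7.73. Dnmt3a, a DNA methyltransferase gene, was at 9.75, 9.83 and 9.07 against 11.32, 11.42 and 10.51 (2.89-fold lower, limma adjusted p = 0.00604), by all 5 probe sets. Kdm2b, a demethylase that sustains leukemic self-renewal, was at 9.28, 9.34 and 9.0 against 10.48, 10.53 and 10.65 (2.54-fold lower, limma adjusted p = 0.000297). Tet1 (difference -1.89), Kdm6a (-0.82) and Tet2 (-0.57) were lower and Eed, a subunit of the Polycomb complex that methylates histone H3 lysine 27, was higher by 0.81. Single arrays ended these 4 calls (limma adjusted p up to 0.171). Those of Tet1 and Eed ended without any 1 array except Hoxa9-Meis1 array 3. That of Tet2 ended without deleted array 5 or 6 or Hoxa9-Meis1 array 2 or 3, and that of Kdm6a without Hoxa9-Meis1 array 1. With the 6 arrays kept, other alternatives also ended the calls of Tet1, Tet2 and Eed (limma adjusted p up to 0.15).

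Among eicosanoid genes, 4 of 22 were higher and 3 lower, with prostaglandin genes among both. These shares were 18.2% and 13.6%, against 9.27% and 6.23% of all genes. Alox5, which makes leukotrienes, was at 9.85, 10.42 and 9.56 against 8.34, 7.65 and 7.71 (4.12-fold higher, limma adjusted p = 0.0077), and the prostaglandin E synthase gene Ptges was at 9.81, 9.89 and 9.88 against 8.08, 8.04 and 7.84 (difference 1.87, limma adjusted p = 0.00885). Tbxas1, for thromboxane synthase, was at 7.84, 7.99 and 7.84 against 10.78, 10.65 and 10.13 (6.17-fold lower, limma adjusted p = 2.52e-05). Hpgd, which degrades prostaglandins, was the largest difference in the list, and the prostaglandin E receptor gene Ptger2 was lower by 2.29 (limma adjusted p = 0.0213). The leukotriene B4 receptor gene Ltb4r1 (difference 1.18) and Ptges2 (0.56) were higher. Ptger2 lost its call without deleted array 4 or Hoxa9-Meis1 array 1 or 2, Ptges2 without any 1 deleted array or Hoxa9-Meis1 array 1, and Ltb4r1 without any 1 of the 6 (limma adjusted p up to 0.12).

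Lists of metabolism and growth followed. Of 25 hypoxia and glycolysis genes, 3 were higher and 2 lower, at the median of all genes, 0.05. Their shares of 12% and 8% were near the 9.27% and 6.23% of all genes. Aldoc, an aldolase, was at 9.67, 9.26 and 10.15 against 6.81, 6.30 and 7.92 (6.44-fold higher, limma adjusted p = 0.00253), at 1 probe set of the pair that reads it. Egln3, an oxygen sensor of the hypoxia response, was 2.86-fold lower (limma adjusted p = 0.00511), and Pfkfb4 was 2.11-fold higher. Of 18 cholesterol synthesis genes, 2 were higher and 1 was lower, at a median of 0.29 (0.17 without deleted array 6). These shares, 11.1% and 5.56%, were near those of all genes as well. Insig1, which restrains sterol synthesis, was at 10.15, 9.73 and 9.72 against 11.30, 11.08 and 11.27 (2.55-fold lower, limma adjusted p = 0.000671), while the synthesis enzyme gene Idi1 was 1.65-fold higher. Of 31 genes of the Myc network and ribosome biogenesis, 1 was higher (Mxi1, a Myc antagonist, 1.57-fold) and 2 were lower (Mycn and Odc1), at a median of 0.04. These shares, 3.23% and 6.45%, were below and near the 9.27% and 6.23% of all genes. Odc1 lost its call without any 1 array except Hoxa9-Meis1 array 3 (limma adjusted p up to 0.0942).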

How the data were processed

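Each sample was hybridised to an Affymetrix mouse expression array. The authors deposited RMA values, per the submitters' processing notes, and the deposited values are linear intensities (4.60 to 32082). The array software version is not given in the sources used here. Of 45101 probe sets, 34958 had a single gene symbol in the platform annotation, 932 had several and 9211 had none. Symbols were updated through RefSeq (GRCm38.p6) for 34754. A pseudocount of 1 was added before log2 of the deposited intensities. For each of 18194 genes the brightest probe set was used, by its mean over the 9 arrays. Groups were compared with limma 3.58.1 in R 4.3.3 in a group-means fit over the 9 arrays, with Benjamini-Hochberg adjustment over all genes, and called at an adjusted p under 0.05. The procedure was tested on simulated data. The number of arrays limits the precision.

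The text names 6 genes in every case, the 15 largest differences each way with groups that did not overlap, up to 4 called genes a list, and all HoxA and TALE genes. Other genes, including most that did not pass, were named after their values were seen. Members and lists were chosen with earlier results of these data known. Alternatives were a pseudocount of 32, a filter on low values, an average of all probe sets of a gene, only the 6 arrays compared, quantile normalization, array weights, a mean-dependent prior, no genes of chromosome 1, and leaving out each array. Chromosome 1 had the largest median difference of the chromosomes (0.10, with 12.2% of its genes higher). By deleted array this median was 0.05, 0.04 and 0.19 for arrays 4, 5 and 6, and copy number was not tested.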

Additional observations from a re-analysis of the deposited data

How the results depend on the processing

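No paired analysis was possible because the deleted arrays are numbered 4 to 6 and the Hoxa9-Meis1 arrays, numbered 1 to 3 here, share no number with them. Leaving out 1 array at a time gave 893 to 1627 genes higher (1687 with all arrays) and 647 to 1083 lower (1134), 1530 to 2817 probe sets higher and 1425 to 2292 lower, and 56 to 91 list members lower; each fit then had fewer samples. Array weights gave 2537 genes and 4377 probe sets higher. The other alternatives gave 1558 to 1784 genes higher, and all those that kept every array gave 1077 to 1572 lower. Of 136 called genes named by the rule, 99 kept their call under every alternative, 36 lost it without at least 1 array and 15 under another alternative. When all probe sets of a gene were averaged, the difference turned for Hoxa9 (0.25), Dot1l (-0.075), Pknox1 (-0.0064) and Pknox2 (0.053). It also turned for Dot1l with quantile normalization (-0.027) and for Hoxa4 with array weights (-0.032). With 1 array left out, Hoxa2 ranged from -0.25 to 0.14, Hoxa4 from -0.10 to 0.16 and Pbx4 from -0.19 to 0.014. For the turned values other than Hoxa9, whose probe sets disagree, the cause was not tested. Probe sets at background give bounds only. A pseudocount of 32 made differences from dim levels smaller. Examples are Stfa3 (7.41 in place of 8.25), Hpgd (-5.74 in place of -6.53) and Ddx4 (-3.24 in place of -5.37).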

Other observations

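Of 20 measured immunoglobulin genes, 13 were called higher in the deleted leukemias (against 9.27% of all genes) and 0 lower, at a median difference of 2.04. The kappa segments among them are near copies of each other whose probes can cross-hybridise. The called genes also held the heavy chain gene Igha (difference 2.53, limma adjusted p = 0.00214) and the lambda segment Iglv1 (1.76, limma adjusted p = 0.00419). The heavy chain gene Ighm did not pass (1.78, limma adjusted p = 0.0783). The summed intensity of B cell markers was higher on the deleted arrays as well. That list holds Ighm and Jchain, so its sum is not a separate measure, and the median difference of the list was 0.07. The part of B cells in the immunoglobulin difference was not tested.

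Called genes of the same direction, each differing by at least 1 on the log2 scale, lay side by side in 10 runs of 3 or more neighbours. On chromosome 11, Ccl3, Ccl4, Wfdc17 and Wfdc18 were lower by differences of -3.57 to -1.25. On chromosome 13, Il6st, Il31ra and Ddx4 were lower (-5.37 to -1.61). On chromosome 7, Ceacam18, Siglece and Ctu1 were higher (1.01 to 4.15). On chromosome 6, Sinhcaf, 3010003L21Rik and Dennd5b were higher (1.40 to 4.36). These runs were picked from the values, so no test was made of them.

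Of 10143 probe sets without a single gene symbol, 382 were higher (3.77%) and 1098 lower (10.8%), whereas of 34958 with 1 symbol in the same limma fit, 2860 were higher (8.18%) and 2430 lower (6.95%). Those without one were also dimmer, with a median level of 6.48 against 7.57.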
